A study of Mus musculus with 14 samples.

Results

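Red cell RNA in the liver was followed through 6 erythroid genes, *Alas2*, *Hba-a1*, *Hba-a2*, *Hbb-bs*, *Hbb-bt* and *Slc4a1*, out of 55487 genes in the table of read counts. They were found by gene symbol and were chosen on measured values of these same mice, so their differences between the groups are given as a description. The libraries came from the right liver lobe of 14 male TALLYHO mice, a polygenic strain that models type 2 diabetes, aged 8 to 12 weeks. Of these, 7 received vehicle (water) and 7 received indole, a tryptophan metabolite made by gut bacteria, by oral gavage at 20 mg/kg. Both groups were dosed 2 times per day for 7 days, received 2 further doses between the tolerance tests that followed, and were culled on day 11. Nothing in the sources used here says whether blood was flushed from the liver before it was frozen. The polyadenylated RNA gave 15197498 to 21060376 counted reads per mouse, and the labels record no batch.

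Adult mouse haemoglobin joins alpha chains, from *Hba-a1* and *Hba-a2*, to beta chains, from *Hbb-bs* and *Hbb-bt*, each chain holding a haem group. *Alas2* encodes the erythroid form of the enzyme that starts haem synthesis, and its relative *Alas1* does the same step in other tissues, the liver included. *Slc4a1* encodes band 3, the anion exchanger that is abundant in the red cell membrane. Mature red cells have no nucleus, reticulocytes still carry RNA, and the adult mouse makes most of its red cells in bone marrow and spleen. In bulk liver RNA, a change in the number of such cells and a change in the RNA that each holds cannot be told apart.

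In the reference genome GRCm38, the 4 globin genes are 2 pairs of near-identical copies. The globin sequences of the TALLYHO mice themselves were not examined. *Hba-a1* (chr11:32283511-32284465) and *Hba-a2* (chr11:32296489-32297298), both on the plus strand of GRCm38, differed at 1 of 426 coding bases and at 0 of 142 residues. *Hbb-bs* (chr7:103826534-103828096) and *Hbb-bt* (chr7:103812524-103813996), both on the minus strand, differed at 1 of 441 coding bases and at 0 of 147 residues. *Alas2* (chrX:150547375-150570638) is on the plus strand and *Slc4a1* (chr11:102348824-102366203) on the minus strand. Because the authors kept uniquely mapped reads, fragments that fitted both copies of a pair could be lost. Of all stretches of 100 bases in the *Hba-a2* transcript, 74.5% were also in *Hba-a1*, and 56.5% of those of *Hba-a1* were in *Hba-a2*. The shares were 62.6% for *Hbb-bs* and 54.8% for *Hbb-bt*. The split of reads within a pair is therefore uncertain, with the highest shared part in *Hba-a2*.

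The promoters of these genes are shown as background, and because they show how alike the copies are. Whether they have a part in how the members varied over mice was not tested. RefSeq (GRCm38.p6) gave a promoter for 5 of the 6 members, not *Slc4a1*. The 250 bases before the RefSeq start are printed for *Alas2* (chrX:150547167-150547416, plus strand), *Hba-a1* (chr11:32283422-32283671, plus strand), *Hbb-bs* (chr7:103827929-103828178, minus strand) and *Hbb-bt* (chr7:103813924-103814173, minus strand). RefSeq starts differ from those of the counted gene models. Part of each printed window therefore lies within the counted gene, and most of it for *Hba-a1* and *Hbb-bs*. Capitals mark 4 kinds of motif on either strand, where adjoining or overlapping matches run together. These are a GATA motif (AGATAA or AGATAG or TGATAA or TGATAG), the letters CACCC, the letters CCAAT and the letters TATAA.
Alas2: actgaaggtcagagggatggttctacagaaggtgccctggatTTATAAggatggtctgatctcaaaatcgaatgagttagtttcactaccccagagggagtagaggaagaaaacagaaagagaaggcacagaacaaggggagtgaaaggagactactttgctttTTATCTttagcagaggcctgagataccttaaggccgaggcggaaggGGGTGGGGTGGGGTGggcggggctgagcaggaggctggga
Hba-a1: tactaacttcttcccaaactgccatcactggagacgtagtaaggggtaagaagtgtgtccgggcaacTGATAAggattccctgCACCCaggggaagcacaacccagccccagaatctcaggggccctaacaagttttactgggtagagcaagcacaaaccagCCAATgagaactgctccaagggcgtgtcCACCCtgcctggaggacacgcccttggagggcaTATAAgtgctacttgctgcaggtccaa
Hbb-bs: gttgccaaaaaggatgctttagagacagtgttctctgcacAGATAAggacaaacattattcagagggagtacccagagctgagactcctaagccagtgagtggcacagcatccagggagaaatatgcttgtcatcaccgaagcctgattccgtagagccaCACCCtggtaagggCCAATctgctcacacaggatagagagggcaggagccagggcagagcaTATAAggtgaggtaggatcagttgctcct
Hbb-bt: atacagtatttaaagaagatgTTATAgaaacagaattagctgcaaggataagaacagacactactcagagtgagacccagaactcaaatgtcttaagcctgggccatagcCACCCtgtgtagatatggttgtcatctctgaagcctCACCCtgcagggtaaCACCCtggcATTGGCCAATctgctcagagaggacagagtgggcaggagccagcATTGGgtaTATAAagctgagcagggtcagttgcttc

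The window of *Hba-a2* held the letters of *Hba-a1* shifted by 3 bases, with 0 mismatches over 297 bases when the bases after the start that RefSeq also gives are counted, and is not printed. The windows of *Alas2*, *Hba-a1* and *Hbb-bs* each held 1 GATA match, which 26.5% of all 32851 promoters in the table also held within their 250 bases. That of *Hbb-bt* held 0 matches to these letters. CACCC stood 3 times in *Alas2*, 2 times in *Hba-a1*, 1 time in *Hbb-bs* and 3 times in *Hbb-bt*, against 52.0% of all promoters with at least 1 match. TATAA on the sense strand began 27 bases before the start of *Hba-a1*, 29 before that of *Hbb-bs* and 28 before that of *Hbb-bt*, and 22.8% of promoters held it on either strand. CCAAT was in the 3 globin windows printed and in 33.8% of promoters. A match describes the letters and does not show binding.

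Levels are given in CPM, the read count of a gene scaled to a common library size by TMM normalisation. Alpha globin from *Hba-a1* was the most abundant member. In the vehicle group, *Hba-a1* had 204 CPM in mouse G1, 106 in G4, 154 in G6, 172 in G9, 125 in G10, 185 in G11 and 100 in G13. In the indole group it had 250 in G2, 137 in G3, 571 in G5, 146 in G7, 132 in G8, 307 in G12 and 536 in G14. G5, G14, G12 and G2 lay above every vehicle-treated mouse, and G3, G7 and G8 lay within the vehicle range. The group levels were 149±39.9 CPM (mean±SD, *n*=7) with vehicle and 297±187 CPM (*n*=7) with indole, a log2 fold change of 0.99 (SE 0.37).

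The beta globins divided the mice in the same way. *Hbb-bs* ranged from 61.2 to 124 CPM with vehicle (median 93.1) and had 168 CPM in G2, 91.7 in G3, 374 in G5, 93.3 in G7, 88.6 in G8, 194 in G12 and 366 in G14. *Hbb-bt* ranged from 15.7 to 30.6 CPM with vehicle (median 22.8) and had 39.6 CPM in G2, 20.6 in G3, 96.1 in G5, 22.2 in G7, 18.8 in G8, 55.4 in G12 and 87.3 in G14. For both genes 4 of 7 indole-treated mice exceeded the highest vehicle-treated mouse. The group means of *Hbb-bs* were 93.7±24.6 and 197±126 CPM, a log2 fold change of 1.07 (SE 0.38). Those of *Hbb-bt* were 22.7±5.34 and 48.6±32.3 CPM, a log2 fold change of 1.10 (SE 0.40).

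*Alas2*, the haem enzyme, moved over a narrower range. With vehicle it had 23.9 CPM in G1, 20.6 in G4, 19.9 in G6, 24.5 in G9, 25.9 in G10, 17.4 in G11 and 24.4 in G13. With indole it had 37.1 in G2, 22.4 in G3, 42.5 in G5, 25.7 in G7, 22.4 in G8, 35.0 in G12 and 47.3 in G14. The same 4 mice stood above the vehicle group. The means were 22.4±3.11 and 33.2±9.92 CPM (*n*=7 each), a log2 fold change of 0.57 (SE 0.16).

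*Hba-a2* and *Slc4a1* rested on few reads. *Hba-a2* had 22 reads in G1, 0 in G4, 2 in G6, 33 in G9, 9 in G10, 0 in G11 and 2 in G13, and with indole 20 in G2, 42 in G3, 113 in G5, 0 in G7, 14 in G8, 79 in G12 and 144 in G14. G14, G5, G12 and G3 were above all vehicle-treated mice here, so that G3 took the place of G2. The means were 0.511±0.638 and 3.50±3.33 CPM, a log2 fold change of 2.72 (SE 0.97). *Slc4a1* had 23 reads in the whole vehicle group (1 to 7 per mouse) and 95 in the indole group, of which 31 were in G12, 25 in G5, 20 in G14 and 13 in G2. The other indole-treated mice, G3, G7 and G8, had 3, 1 and 2 reads. Its means were 0.181±0.105 and 0.798±0.724 CPM, and only a fit with no filter on low counts gave it a log2 fold change, 2.09 (SE 0.59).

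**Figure D1:**
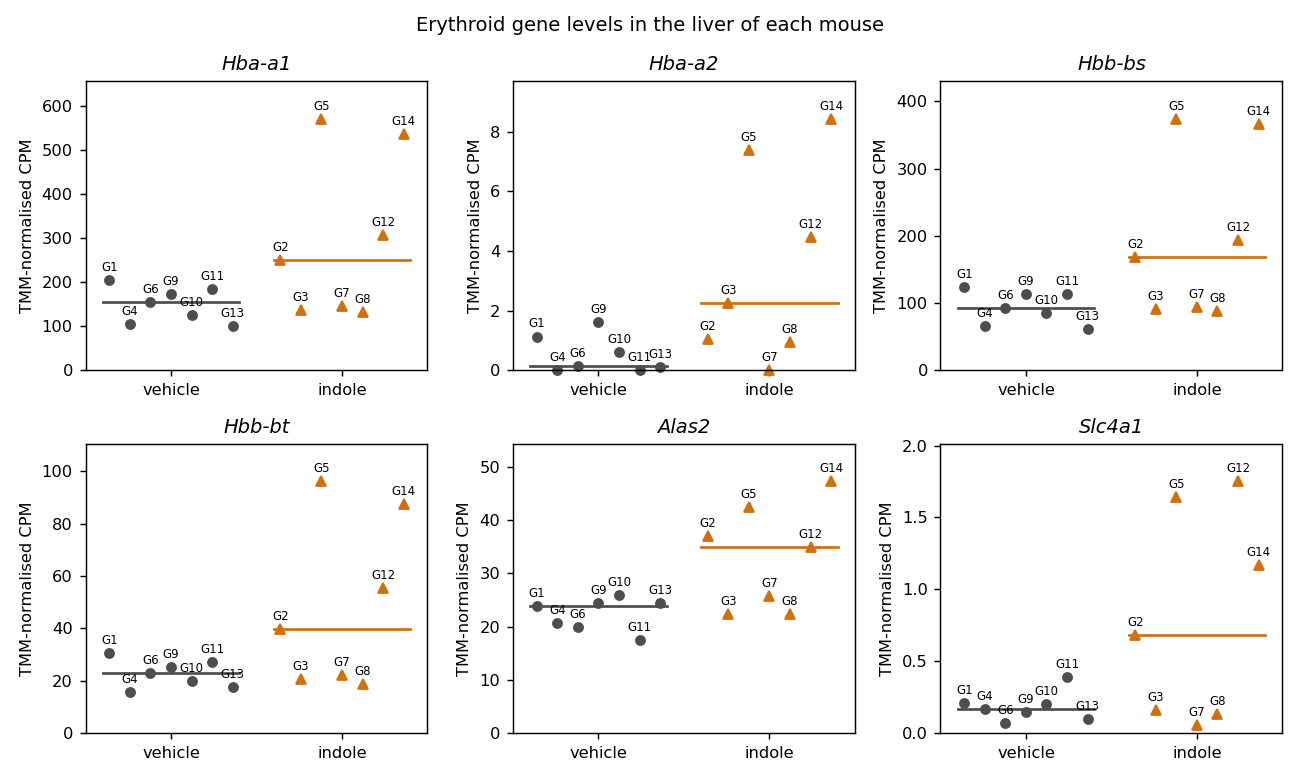
Level of each member in TMM-normalised CPM (vertical axis, from 0) for each of 14 mice, 7 per group, with a horizontal line at the group median. In each panel 4 indole-treated mice stand above the vehicle group, G2, G5, G12 and G14 in all but *Hba-a2*, and the others overlap it.

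Of the 6 members, 5 passed the filter on low counts and *Slc4a1* did not. In the edgeR quasi-likelihood fit over 12653 genes, 5 of these 5 had an unadjusted *p* below 0.05 and were higher with indole. Over all genes tested, 1.53% were called so in that direction and 3.81% in either direction. No weight is placed on this count, since the members were chosen on the same contrast, and *Hba-a2* reached the level of the filter in 3 of 7 vehicle-treated and 6 of 7 indole-treated mice. At an adjusted *p* below 0.05, 0 of 12653 genes were called (0.0%), 482 had an unadjusted *p* below 0.05, and DESeq2 called 1 gene, *Cyp2c29*, which is no member and was named after its value was seen. The median log2 fold change of the 5 tested members was 1.07, beside 0.00 over all genes. Single mice set part of the size: *Hba-a1* gave 0.746 without G5 and 1.119 without G8, *Hbb-bs* 0.83 without G5 and 1.20 without G8, and *Alas2* 0.47 without G14 and 0.65 without G3. *Hba-a2* moved most, from 2.72 with all mice to 3.38 without G9 and 2.34 without G14.

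Together the 6 members held 0.0205% to 0.0411% of the reads of a vehicle-treated mouse (median 0.0282%) and 0.0257% to 0.102% of those of an indole-treated mouse (median 0.0533%). Per kilobase of transcript, the mean vehicle levels were 184 CPM for *Hba-a1*, 122 for *Hbb-bs*, 32.3 for *Hbb-bt*, 9.31 for *Alas2*, 0.767 for *Hba-a2* and 0.0370 for *Slc4a1*. This order held in 14 of 14 mice down to *Hba-a2*. It is an order of counted reads, and the place of a globin copy, *Hba-a2* above all, may depend on reads lost because they fitted both copies. *Hba-a2* was above *Slc4a1* in 11 of 14 mice, so the lowest 2 could not be ordered throughout.

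Mice of the same group differed in these genes, most widely in the indole group. The SD of log2 CPM within groups was 0.70 for *Hba-a1*, 0.70 for *Hbb-bs*, 0.74 for *Hbb-bt* and 0.34 for *Alas2*. Of the tested genes that were at least as abundant as each member, 96.8%, 97.6%, 98.6% and 94.6% respectively had a smaller spread. These SDs and shares pool both groups, and the shares were not computed for vehicle alone. The indole group was the more dispersed, with an SD of 0.91 for *Hbb-bs* against 0.40 with vehicle, and 0.44 against 0.21 for *Alas2*. Whether the spread differed between the groups was not tested. Over all 14 mice the highest level was 6.11 times the lowest for *Hbb-bs*, 6.13 for *Hbb-bt* and 5.69 for *Hba-a1*, and 2.72 for *Alas2*.

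The proportions among globin reads barely moved while the totals did. *Hbb-bt* made up 19.7±1.32% of *Hbb-bs* and *Hbb-bt* reads with vehicle and 19.4±1.51% with indole (*n*=7 each), with a range of 17.5% in G8 to 22.4% in G13. The Wilson 95% interval was 15.7% to 19.4% in G8 and 20.5% to 24.5% in G13, so these extremes differed by more than counting error. The alpha genes held 56.2±0.931% of all globin reads with vehicle and 55.2±0.462% with indole. These intervals cover counting error only, and reads that fitted both copies are not in them.

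*Hba-a2* was the exception. It took 0.0% to 0.929% of *Hba-a1* and *Hba-a2* reads with vehicle (median 0.0941%) and 0.0% to 1.62% with indole (median 1.28%). G3, with 1.62% (Wilson 95% interval 1.20% to 2.18%), lay far above G7, with 0 of 2573 reads, which allows a share of up to 0.117%, although their *Hba-a1* levels were alike. G4 and G11 also had 0 reads, allowing up to 0.154% and 0.0899%. The highest shares after G3 were 1.55% in G14, 1.43% in G12 and 1.28% in G5. The groups overlapped, and the share of reads that each copy lost to its near-identical partner was not measured here.

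**Figure D2:**
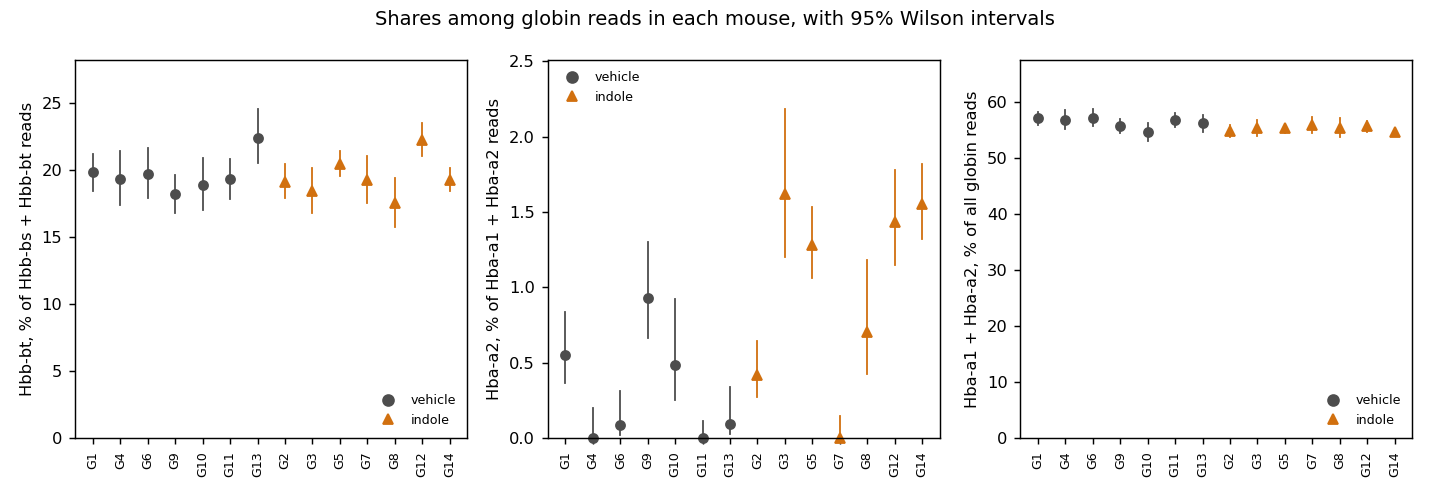
Share of *Hbb-bt* among beta globin reads, of *Hba-a2* among alpha globin reads and of alpha globin among all globin reads (%, vertical axes from 0) in each mouse, with bars for the Wilson 95% interval. The first and last shares stay within 17.5% to 22.4% and 54.5% to 57.1%, whereas the *Hba-a2* share runs from 0.0% to 1.62%.

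How the members varied together over mice was compared for 15 pairs on log2 CPM with 2-sided permutation tests, adjusted over the 15 pairs. Pearson *r* ran from 0.712 to 0.997 over the 14 mice, with all 15 adjusted *p* at or below 0.0047. Spearman *rho* ran from 0.521 to 0.996 with 14 of 15 adjusted *p* below 0.05, the exception being *Alas2* and *Slc4a1* (0.0583 in the permutation test). The pooled values and their *p* contain the difference between the groups on which the genes were chosen, and are not independent of that choice. For that reason *r* was also computed on deviations from the group means, with mice permuted only within their group, a test added after the data were seen. It ran from 0.602 to 0.997, with 15 of 15 adjusted permutation *p* below 0.05 and the largest 0.0481. Centring keeps the spread within the indole group, where G2, G5, G12 and G14 were highest in all members but *Hba-a2*. This test is therefore not free of that choice either. Within the vehicle group alone, *r* ran from −0.351 to 0.986. *Slc4a1* did not pass the filter and reached its level in 0 of 7 vehicle-treated and 4 of 7 indole-treated mice. *Hba-a2* reached that level in 3 of 7 vehicle-treated and 6 of 7 indole-treated mice. No weight is placed on the *p* of pairs with either gene.

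*Hba-a1*, *Hbb-bs* and *Hbb-bt*, on 2 chromosomes, kept step in both groups. *Hba-a1* and *Hbb-bs* had *r* of 0.997 over all mice (*rho* 0.996), 0.986 within the vehicle group and 0.999 within the indole group, and 0.991 without G5 and G14, the mice farthest from the median. Centred on the groups, *r* was 0.997 (permutation *p* 1e-05, the smallest that 100000 resamples can give, adjusted *p* 5e-05). *Hbb-bs* and *Hbb-bt* had *r* of 0.989 over all mice (*rho* 0.987), 0.960 within vehicle, 0.993 within indole and 0.967 without those 2 mice, and 0.986 when centred (permutation *p* 1e-05, adjusted *p* 5e-05). *Hba-a2*, at 0 to 144 reads, followed less closely. Its *r* with *Hba-a1* was 0.755 over all mice (*rho* 0.673) and 0.656 when centred. It was 0.450 within vehicle, 0.748 within indole and 0.548 without G5 and G14. With *Hbb-bs* and *Hbb-bt*, the *r* of *Hba-a2* was 0.538 and 0.492 within vehicle and 0.757 and 0.748 within indole.

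*Alas2* had *r* of 0.847 with *Hbb-bs* over 14 mice (*rho* 0.578), and 0.770 when centred on the groups (permutation *p* 0.0133, adjusted *p* 0.0222). As for the other pairs, the centred test is not free of the choice of the members. Within the indole group *r* was 0.961, but within the vehicle group it was −0.151, and without G5 and G14 it was 0.620 over the rest. With *Hba-a1* and *Hbb-bt*, *r* was −0.245 and −0.142 within vehicle and 0.961 and 0.960 within indole. With *Hba-a2* it was 0.731 within vehicle and 0.629 within indole. The positive relation of *Alas2* to the 3 abundant globins was thus seen in the indole group and not among vehicle-treated mice. The difference between the groups in *r* was not tested, and vehicle-treated mice spanned a narrower range of these genes.

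*Alas2* had 53.4 to 136 reads per 1000 globin reads with vehicle (median 78.6) and 40.5 to 98.4 with indole (median 80.9). The lowest was G5 and the highest G13, the mice with most and least *Hbb-bs*, whose reads are part of the denominator. *Slc4a1*, with 1 to 31 reads per mouse, had *r* of 0.904 with *Hbb-bt* (*rho* 0.732), and 0.870 when centred. It was 0.407 within vehicle, 0.923 within indole and 0.855 without G5 and G14. These values rest on few reads, as *Slc4a1* had at most 7 in any vehicle-treated mouse.

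**Figure D3:**
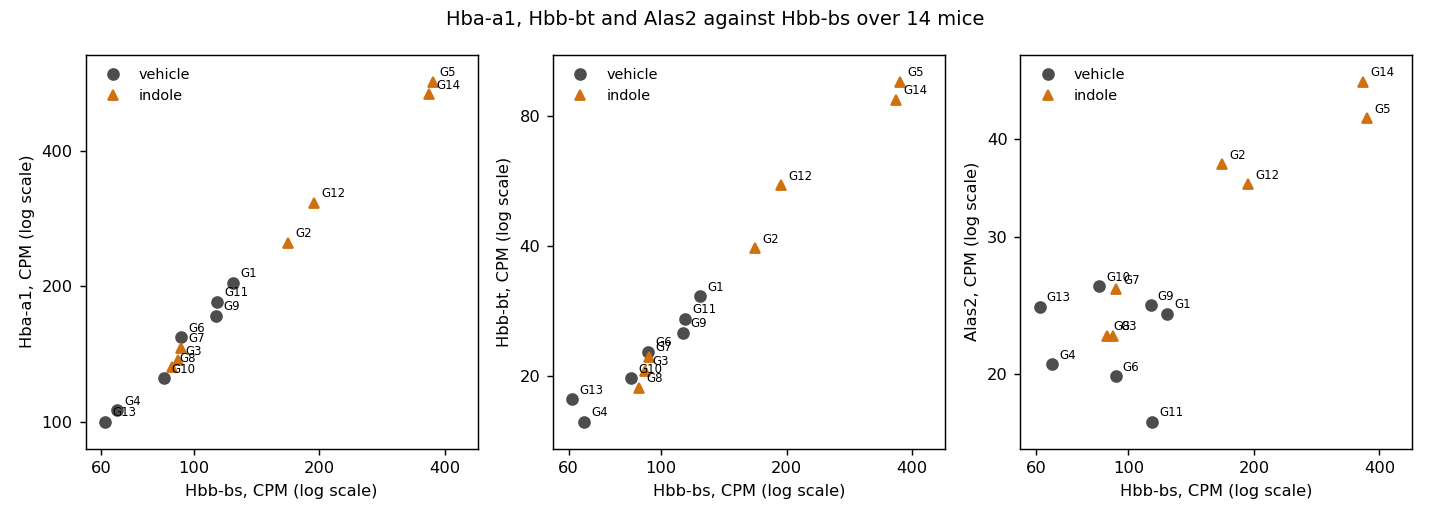
*Hba-a1*, *Hbb-bt* and *Alas2* against *Hbb-bs* in CPM (log axes) for 14 mice. The other globins fall along a line in both groups, while *Alas2* stays between 17.4 and 25.9 CPM in the vehicle-treated mice whatever their *Hbb-bs*, and is higher in the 4 indole-treated mice with most *Hbb-bs*.

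Other genes of red cells were taken from wider lists. Of 18 late red cell genes, 14 were tested, 12 were higher and 2 lower with indole, with a median log2 fold change of 0.10. Of the 14, 2 had an unadjusted *p* below 0.05 in edgeR, both higher. Over all genes tested, 1.53% had such a *p* and were higher, and 3.81% had it in either direction. The median log2 fold change over all genes was 0.00, beside which the splits of this and the other lists are given. *Bpgm*, the enzyme that makes the 2,3-bisphosphoglycerate that lowers the affinity of haemoglobin for oxygen, had 17.9±0.431 and 20.7±3.45 CPM, a log2 fold change of 0.20 (SE 0.09, edgeR unadjusted *p* 0.0406, adjusted *p* 0.998). Its 7 vehicle-treated mice lay between 17.1 and 18.4 CPM, and G2, G5, G12 and G14 had 21.9, 24.9, 20.8 and 24.9 CPM. It did not pass the adjustment, and its unadjusted *p* stayed below 0.05 in 5 of 14 fits that left out a mouse.

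Most other red cell genes tested differed less between the groups than the members did. *Prdx2*, a peroxidase and the most abundant late red cell gene on the list, had 126±10.3 and 131±10.2 CPM. The 14 genes of haem and iron supply included 11 higher and 3 lower, 0 with an unadjusted *p* below 0.05 in edgeR, and a median log2 fold change of 0.06. *Alas1*, the form of *Alas2* used outside red cells, had 179±64.2 CPM with vehicle and 149±49.4 CPM with indole (log2 fold change −0.26, SE 0.24). *Alad*, the next enzyme of the pathway and the most abundant gene on that list, had 262±35.9 and 285±26.3 CPM. Of the signals that set red cell production and iron, 6 of 8 were tested, 4 higher and 2 lower, and *Hamp*, which encodes hepcidin, had 613±291 and 619±159 CPM. Of the 10 genes that clear haem and haemoglobin, 7 were higher and 3 lower, and *Hpx*, which encodes the haem binder haemopexin, had 3965±1260 and 3768±1780 CPM. Neither of these last 2 lists held a gene past that limit (0 genes each in edgeR).

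Among genes of the erythroid lineage that nucleated precursors use, some were at or near 0 and others were detected. *Gata1*, a transcription factor of the erythroid lineage, was read 0 times with vehicle and 3 times with indole. *Gfi1b*, *Epb42*, *Rhag* and *Tspo2* had 0 reads in all mice, and a count of 0 allows up to 0.142 to 0.197 CPM per mouse. *Trim10*, a gene of late erythroblasts, had 1 and 15 reads in the whole groups, of which 10 were in G14 and 4 in G5. The 6 embryonic globin genes and relatives *Hba-x*, *Hbb-y*, *Hbb-bh0*, *Hbb-bh1*, *Hbb-bh2* and *Hbb-bh3* had 0 reads. *Klf1*, another erythroid transcription factor, had 59 to 113 reads in each mouse, at 4.61±0.713 and 4.83±0.848 CPM. Of 17 red cell membrane genes 3 were tested, and the most abundant, *Epb41*, had 132±14.7 and 129±16.5 CPM. Of 11 erythroid regulators 7 were tested, 5 higher and 2 lower, and *Zfpm1*, the most abundant, had 49.4±5.11 and 49.9±4.06 CPM. Both lists had 0 genes past the unadjusted limit in edgeR.

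**Figure D4:**
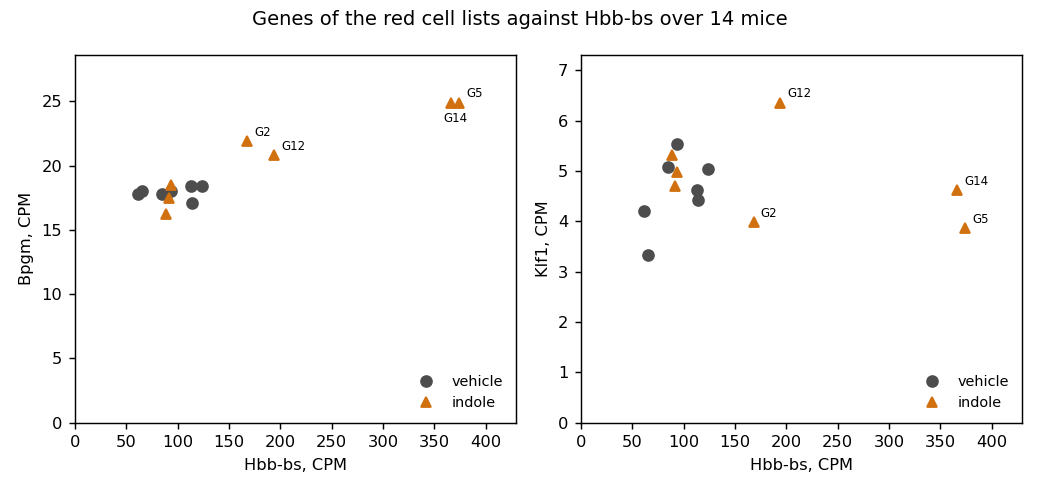
*Bpgm* and *Klf1* against *Hbb-bs* in CPM (axes from 0) for 14 mice. *Bpgm* is highest in the mice with most *Hbb-bs*, G5 and G14, while *Klf1* lies between 3.34 and 6.36 CPM with no such order.

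The genes with the pattern most like that of the members were found by Pearson *r* between each gene's log2 CPM, as deviations from the group means, and the mean standardised profile of the 5 tested members over 14 mice. These values are a description over genes that share libraries and depth. *Bpgm* (*r* 0.903) ranked 2 of 12648 genes that were no members. The next were *Lyrm7* at 0.840, *Zmym4* at 0.803, *2900009J06Rik* at 0.791, *Uvrag* at 0.785, *Cnnm2* at 0.784, *Letm1* at 0.778, *Fcsk* at 0.774 and *Lancl2* at 0.769. *Gm12184*, *Sirt5*, *Igfbp2*, *Gm4949* and *Isy1* followed, from 0.750 down to 0.733, and none of these 13 was on a red cell list. The order depended on how likeness was measured, since 10 of the 15 were shared when *rho* was used and 5 when values were not centred on the groups.

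Taken singly, *Alas2* was most like *Bpgm* (*r* 0.914) and *Hba-a2* was most like *Osgepl1* (*r* 0.815). Genes that ran opposite to the members were *Rbbp8* at −0.911, *Man2c1* at −0.900, *Slc38a1* at −0.862, *Gm32391* at −0.815 and *Incenp* at −0.801. Of 38 tested genes on the red cell lists, 5 had *r* above 0.5, among them *Bpgm*, *Bnip3l* (0.676) and *Mkrn1* (0.661), and *Klf1* was at −0.054. Over all 12648 genes 3.18% had *r* above 0.5. The median *r* was 0.215 over the 38 red cell list genes and −0.001 over all 12648 genes.

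**Figure D5:**
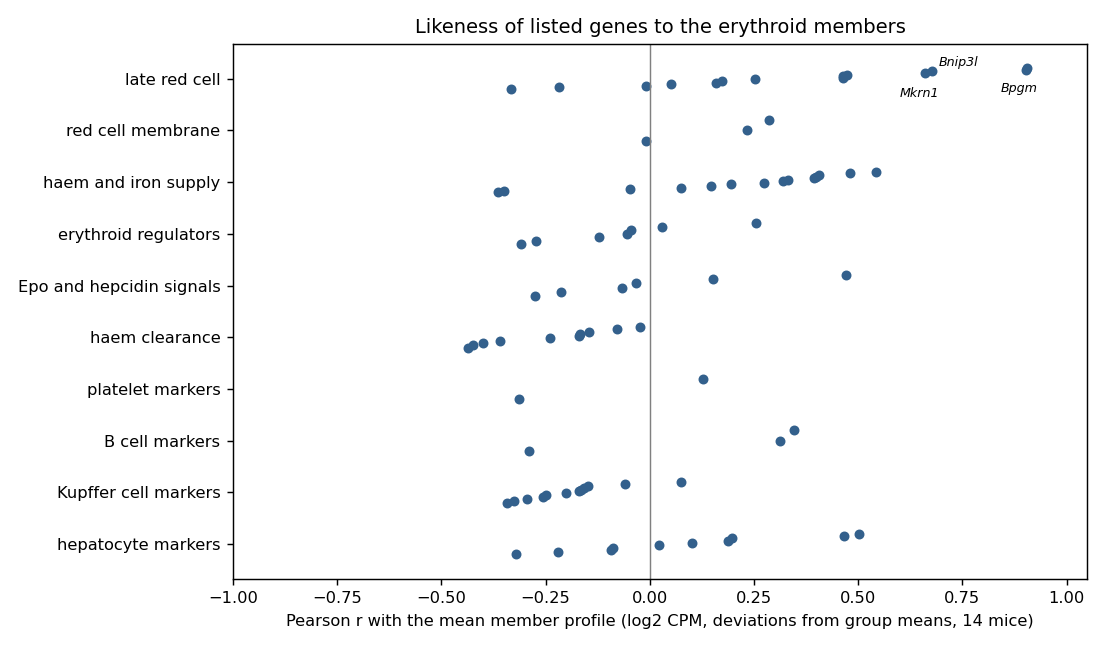
Pearson *r* of each tested gene with the mean profile of the members (horizontal axis, group-centred log2 CPM over 14 mice), 1 point per gene, in a line for each list. *Bpgm* lies at 0.903. The genes of haem clearance lie below 0, from −0.436 to −0.024, as do the Kupffer cell markers except *Fcna* (0.076).

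Markers of other blood and liver cells were summed in each mouse and set beside *Alas2* and *Hbb-bs*, 14 relations with the library total included. None passed the adjustment, the lowest adjusted *p* in the permutation tests being 0.269 for Pearson *r* (*Hbb-bs* and B cell markers) and 0.315 for Spearman *rho* (*Hbb-bs* and platelet markers). B cell markers summed to 2.47 to 5.66 CPM with vehicle and 3.51 to 6.67 CPM with indole, all 8 genes having reads. Their *r* with *Hbb-bs* was 0.614 (permutation *p* 0.0192; *rho* 0.512, permutation *p* 0.0634, adjusted *p* 0.331), 0.374 within vehicle, 0.600 within indole and 0.325 without G5 and G14. Platelet markers, 10 of 11 with reads and *Gp1bb* at 0, summed to 2.49 to 4.59 CPM with vehicle and 2.25 to 4.17 CPM with indole. Their *r* with *Hbb-bs* was −0.370 (permutation *p* 0.192, adjusted *p* 0.801; *rho* −0.613, permutation *p* 0.0225), −0.741 within vehicle, −0.143 within indole and −0.652 without those 2 mice.

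Neutrophil markers, 10 of 12 with reads and *Camp* and *Ly6g* at 0, summed to 0.533 to 2.27 CPM with vehicle and 0.507 to 2.15 CPM with indole. T and NK cell markers, all 10 with reads, summed to 0.615 to 2.74 and 0.679 to 2.89 CPM. Kupffer cell markers, all 12 with reads, summed to 128 to 309 CPM with vehicle and 145 to 552 CPM with indole, the highest being G8, whose globins were among the lowest of the indole group. Hepatocyte markers, all 10 with reads, showed the tissue to be liver at 98780 to 122400 and 91040 to 127200 CPM. The most abundant of each list were *Itga2b*, *S100a8*, *Ighm*, *Trbc2*, *Clec4f* and *Alb*. *Ttr*, the plasma carrier transthyretin, was the only 1 of the listed cell markers with an unadjusted *p* below 0.05 (4795±587 and 5648±424 CPM, edgeR *p* 0.011, adjusted *p* 0.998). The markers tested were 2 of platelets, 3 of B cells, 12 of Kupffer cells and 10 of hepatocytes. No weight is placed on *Ttr*, since 3.81% of all genes tested had such a *p* in edgeR. The part that blood left in the lobe had in these differences was not tested.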

How the data were processed

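The authors trimmed adapters, aligned reads from strand-specific polyA libraries with HISAT2 to GRCm38 (Ensembl 102) and kept uniquely mapped reads. They deposited raw read counts for 55487 genes in 14 mice, without normalisation. The counting tool is not given in the sources used here. Groups were taken from the sample labels and mouse names (G1 to G14) from the library names.

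Counts were compared with edgeR 4.0.16 (TMM, filterByExpr, robust quasi-likelihood test) in R 4.3.3, with Benjamini–Hochberg adjustment over 12653 genes. DESeq2 1.42.0, RLE scaling, no filter, a fit that was not robust, library totals without the members, and leaving out each mouse were alternatives. The fit was checked on simulated counts. Correlations used log2 CPM (prior count 2) and 100000 permutations (scipy 1.17.1), over all mice and, as an alternative added after the data were seen, within groups on group-centred values. Shares have Wilson 95% intervals, and 3 reads were taken as the limit that a count of 0 allows. Depth was 15197498 to 21060376 reads per mouse, so genes with a few reads, such as *Slc4a1*, carry large counting error. Transcript and coding sequences were compared on the GENCODE vM21 models of GRCm38.

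The members and all 13 gene lists were chosen with earlier results of these data known. Named genes are the members, each list's genes with an unadjusted *p* below 0.05 and its most abundant gene, the 15 genes most like and 5 least like the members, and each member's nearest gene. Genes marking precursors, *Alas1*, *Klf1*, *Trim10* and those with *r* above 0.5 were named after their values were seen. *Hbb-b1*, *Hbb-b2* and *Ahsp* had no entry under these symbols among the counted genes and were not analysed here. Some genes that met the rule are not reported here.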

Additional observations from a re-analysis of the deposited data

Results flagged for a closer look

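In 38 comparisons of the extreme mouse of a group with the rest of it, by Dixon's ratio of the gap to the range, 2 were past the critical value for 7 mice. Chance gives about 1 in 20 such flags. The *Hbb-bt* share of beta globin reads was highest among vehicle-treated mice in G13 (22.4%), with a ratio of 0.619. The summed Kupffer cell markers were highest among indole-treated mice in G8 (552 CPM), with a ratio of 0.733. No globin or *Alas2* level was past the critical value in either group.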

How the results depend on the processing

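Of the values recomputed under the alternatives, 653 stayed within the limits set for a move, 35 moved, and 5 *r* between members that had passed the adjustment changed sign. These were all within the vehicle group alone, for *Alas2* with *Hba-a1* (−0.245), *Hbb-bs* (−0.151), *Hbb-bt* (−0.142) and *Slc4a1* (−0.351), and for *Hba-a2* with *Slc4a1* (−0.091). Among the 14 relations with cell markers and the library total, none of which passed the adjustment, 7 also changed sign under some alternative. The cause was not tested. DESeq2 called 1 gene at an adjusted *p* below 0.05 where edgeR called 0, also in every fit that left out a mouse. With no filter on low counts, which tests 22535 genes, 1336 genes rather than 482 had an unadjusted *p* below 0.05, and 7 red cell list genes rather than 2, with *Gata1*, *Hbq1b*, *Steap3* and *Trim10* among those added. Leaving out each mouse gave 386 to 627 of the 12720 to 12791 genes tested, and 1 to 5 of 38 red cell list genes. There was 1 without G4, G10 or G2, 4 without G11 and 5 without G7. No paired analysis was possible because the labels give the groups no shared replicate numbers. Depth limits *Slc4a1* and *Hba-a2*, whose levels rest on few reads in most mice.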
